A study of Mus musculus with 8 samples.

Results

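Glycolytic enzymes of male germ cells were followed through 10 genes, Hk1, Ldhc, Pgk2, Tpi1, Aldoart1, Aldoart2, Gapdhs, Eno4, Pgam2 and Ldhal6b. Members were every probe set that the platform annotation gave to a single one of these symbols, 16 probe sets for 10 genes, among 45037 probe sets and 18193 named genes on the array. A further probe set annotated to Hk1 together with the ribosomal protein gene Rpl17 and other copies was left out. RNA came from whole testes of mice aged 27 days, 4 labelled wild type and 4 labelled mutant, Brwd1-/-, with 1 Affymetrix array per mouse. Brwd1 encodes a protein with bromodomains and WD repeats. The genotype entry of the controls reads Brwd1+/- although their titles say wild type, so they may carry 1 mutant copy; they are called wild type here. All mice were untreated, and the labels name neither strain nor the nature of the mutation. The comparison asks which of these transcripts differ in mutant testes at an age when, per the series' design text, spermatids are partway through development.

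Glycolysis splits glucose into pyruvate, which lactate dehydrogenase can turn into lactate. Sperm draw much of their energy for swimming from this pathway, with enzymes fixed along the tail, and germ cells replace several common isozymes by forms of their own. Some of these genes, such as Pgk2, Aldoart1 and Aldoart2, are retrogenes, copies made from a processed RNA of the widespread gene. Ldhc and Pgk2 are switched on in spermatocytes, while Gapdhs is switched on in spermatids. Hk1 and Tpi1 are used in many tissues and make additional transcripts in germ cells. The order of onset of the other members is less certain and is not used for any test.

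The bases upstream of the start are shown for 4 members that illustrate both outcomes: Gapdhs, Hk1 and Pgk2, which were lower in mutants by at least one test below, and Ldhc, which was at a similar level. Each run is the 250 bases before a start site, 5′ to 3′ on the strand of the gene, from RefSeq on build GRCm38.p6. Windows were found for 9 of the 10 members. Capitals mark TGACG, the core of the cAMP response element TGACGTCA to which CREB and CREM bind, or the variant TGATGTCA, on either strand. The variant was chosen after the sequences were read.
Gapdhs (chr7:30743682-30743931, minus strand): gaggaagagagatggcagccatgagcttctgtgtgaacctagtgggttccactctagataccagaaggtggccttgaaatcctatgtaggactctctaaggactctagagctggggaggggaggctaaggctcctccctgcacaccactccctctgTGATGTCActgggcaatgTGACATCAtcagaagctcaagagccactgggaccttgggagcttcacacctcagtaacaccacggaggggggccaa
Hk1 (chr10:62379909-62380158, minus strand): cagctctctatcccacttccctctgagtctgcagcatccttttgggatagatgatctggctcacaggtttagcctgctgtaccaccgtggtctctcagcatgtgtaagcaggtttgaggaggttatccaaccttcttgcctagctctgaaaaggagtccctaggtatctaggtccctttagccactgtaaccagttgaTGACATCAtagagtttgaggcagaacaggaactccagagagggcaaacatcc
Pgk2 (chr17:40208610-40208859, minus strand): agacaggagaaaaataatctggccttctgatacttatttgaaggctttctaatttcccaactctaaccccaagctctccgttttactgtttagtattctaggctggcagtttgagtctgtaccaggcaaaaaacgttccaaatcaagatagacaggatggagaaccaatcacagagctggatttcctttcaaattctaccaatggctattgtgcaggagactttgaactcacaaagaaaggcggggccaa
Ldhc (chr7:46861013-46861262, plus strand): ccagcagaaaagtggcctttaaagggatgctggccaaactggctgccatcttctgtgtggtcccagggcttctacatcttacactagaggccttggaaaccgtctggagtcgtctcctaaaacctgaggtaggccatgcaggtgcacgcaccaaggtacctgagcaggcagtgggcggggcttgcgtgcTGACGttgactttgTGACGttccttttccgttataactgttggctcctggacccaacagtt
The variant began 94 and 76 bases before the start of Gapdhs and 52 bases before that of Hk1. A second start listed for Gapdhs held it as well, at 70 and 52 bases, whereas a second start of Hk1 did not. The 2 Gapdhs windows share long stretches of sequence, so they are not separate cases of the variant. The variant was also present in Pgam2, 225 bases before the start, and in 2.93% of all 32851 windows of this length. The core TGACG occurred in Ldhc at 61 and 47 bases before the start shown, was absent from the window of a second Ldhc start, and occurred in 17.8% of all windows. The full element TGACGTCA was in none of the members' windows and in 1.55% of all windows, and any TGACGTCA also holds the core. The windows of Pgk2, Aldoart2, Eno4, Ldhal6b and Tpi1 held neither the core nor the variant. All matches describe the letters only.

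The deposited values are intensities, scaled so that each array has the same trimmed mean of 500, and array medians lay between 90.7 and 124. Between replicates 3 and 4 and replicates 1 and 2 of both genotypes, 40.9% of 27022 probe sets differed (limma, genotype in the model). The labels name no batch. A list of 9 measured epididymis genes summed to 203 to 492 in replicates 1 and 2 and to 44325 to 54813 in replicates 3 and 4. Each of these sets of replicates holds 2 mice of each genotype, so values are given unblocked, blocked by replicate number, and blocked by these sets. Markers of the testis were present: wild-type means were 21289 for Clu of Sertoli cells, 8961 for Cyp17a1 of Leydig cells and 24319 for Tnp1 of elongating spermatids. Of 16 genes listed for elongating spermatids, 12 fell with the replicate block, where 2.18% of all probe sets fell. The summed intensity of the 16 was 118139 to 212071 in wild type and 14435 to 59479 in mutants. In whole tissue, fewer cells of a type and less RNA per cell cannot be told apart.

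Among the glycolytic members, Gapdhs and Pgk2 were called lower in mutant testes in both blocked fits. Hk1 was called on 1 of its 2 probe sets, with the replicate block alone. Aldoart1 (log2 difference -1.72) and Aldoart2 (-1.43) were lower too but missed the threshold in all 3 fits. In contrast, Ldhc, Tpi1, Pgam2 and Ldhal6b had log2 differences within 0.11 of 0. With the replicate block 3 of the 16 probe sets fell, 1 each of Gapdhs, Pgk2 and Hk1, and none rose (limma, adjusted p under the threshold of 0.05). In that fit 2.39% of all probe sets were called; 2.18% fell and 0.215% rose. With the block of replicates 1 and 2 against 3 and 4, 2 of the 16 fell, Gapdhs and Pgk2, and none rose, where 1.79% of all were called, 1.48% lower and 0.311% higher. Without a block no member passed limma's test, where 0.115% of all probe sets did, and 6 members had an unadjusted p under 0.05, against 7.43% of all. In 4 member probe sets every mutant lay below every wild type, and in none above, against 3.83% and 2.26% of all probe sets, 6.1% together. The median log2 difference, mutant minus wild type, was -0.14 over the 16 member probe sets and 0.07 over all probe sets. Of the members, 13 had negative values, from -1.92 upward, and the highest value was 0.04. All 16 passed the filter on low values.

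**Figure D1:**
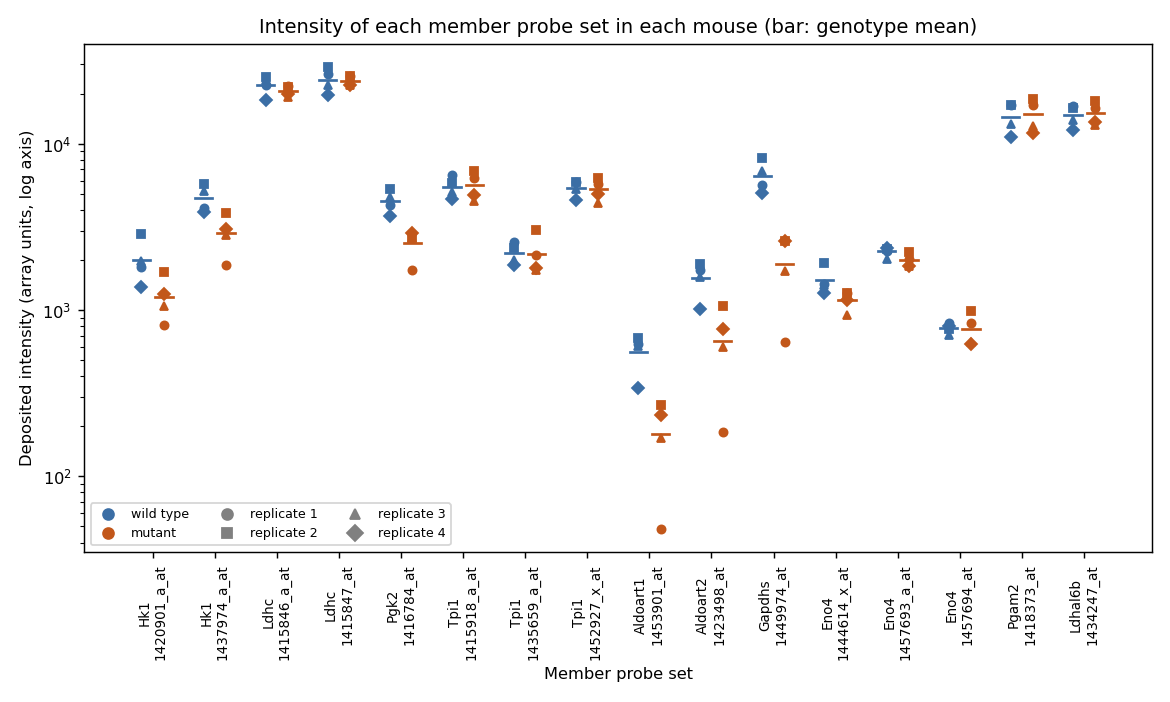
Deposited intensity, in array units on a log axis, of the 16 member probe sets in 4 wild-type and 4 mutant mice; symbols give the replicate number and bars the genotype mean. For Gapdhs all mutants lie at or below 2613 and all wild types at or above 5049, while the points of Ldhc, Tpi1, Pgam2 and Ldhal6b overlap between genotypes.

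Ldhc encodes the lactate dehydrogenase subunit of spermatocytes, spermatids and sperm, which interconverts pyruvate and lactate. On its brighter probe set wild-type replicates 1 to 4 read 26207, 28891, 22462 and 19634, and mutant replicates 1 to 4 read 25561, 25545, 22405 and 22408. All mutant values lay inside the range of the wild types. Means were 24298 ± 4077 and 23980 ± 1817 (SD, n = 4 each). The log2 difference without a block was -0.01, and its 95% interval ran from -0.29 to 0.28. With the replicate block the interval was -0.16 to 0.14, so a fall as large as that of Pgk2 lay outside it. The other probe set of Ldhc gave -0.11, with an interval of -0.36 to 0.15 without a block.

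Pgk2 encodes the phosphoglycerate kinase of meiotic and later germ cells, which makes ATP in the second stage of the pathway. It read 4260.4, 5361, 4769.8 and 3655 in wild-type replicates 1 to 4 and 1736, 2703, 2695 and 2921 in mutant replicates 1 to 4. Every mutant was below every wild type, and mutant replicate 1 was lowest. Mean intensities were 4512 ± 727 and 2514 ± 529 (SD, n = 4 each). Log2 differences and folds throughout are between means of log2(value + 16), so they differ somewhat from ratios of mean intensities. For Pgk2 the log2 difference was -0.85, a 1.81-fold lower level. Pgk2 missed the threshold without a block (limma, adjusted p = 0.137, standard error 0.19) and passed with the replicate block (0.026) and with the block of the 2 sets of replicates (0.0432). Without mutant replicate 1 the difference was -0.69.

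Hk1 encodes hexokinase 1, which traps glucose by phosphorylation at the entry of the pathway, and was covered by 2 probe sets. The brighter one read 4090.2, 5708, 5230.1 and 3886 in wild-type replicates 1 to 4, and 1854, 3849, 2839.8 and 3051 in mutant replicates 1 to 4. The genotypes did not overlap, but mutant replicate 2 and wild-type replicate 4 were close together. The log2 difference was -0.73, a 1.66-fold lower level, which passed with the replicate block (limma, adjusted p = 0.0304) and missed without a block (0.314) and with the sets as a block (0.131). The dimmer probe set had nearly the same log2 difference, -0.74, with 3 of 4 mutants below the lowest wild type, and did not pass in any of these fits (adjusted p = 0.483, 0.0615 and 0.186). The call of the brighter probe set was lost with the replicate block when both mice of number 1 were left out (adjusted p = 0.0616, log2 difference -0.60). The array cannot show which Hk1 transcripts these probe sets read.

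Tpi1 encodes triosephosphate isomerase, which interconverts both products of the split sugar so that each can enter the later steps, and its 3 probe sets had log2 differences of 0.02, -0.04 and -0.04. The brightest read 6454, 5774, 5118 and 4660.0 in wild-type replicates 1 to 4 and 6184, 6827, 4553 and 4883 in mutant replicates 1 to 4. In both genotypes the higher values were those of replicates 1 and 2, and the genotypes overlapped. Its 95% interval without a block was -0.35 to 0.39. The brightest probe set changed sign with the scaling, to -0.02 after median centring, while the others stayed negative under median centring and quantile normalization.

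Aldoart1 and Aldoart2 encode testis aldolases, which split fructose bisphosphate, and both are retrogenes related to Aldoa. Aldoart1 read 621.9, 679, 608 and 341.5 in wild-type replicates 1 to 4, and 48.4, 268, 171 and 233 in mutant replicates 1 to 4. The genotypes did not overlap, and mutant replicate 1 was far below the other mutants. Mean intensities were 563 ± 151 and 180.1 ± 96.5 (SD, n = 4 each). The difference of mean log2 values was -1.72 and missed the threshold in all 3 fits (limma, adjusted p = 0.196 unblocked, 0.0576 blocked by replicate number and 0.0826 blocked by the sets). Aldoart2 read 1733, 1880.1, 1589.6 and 1007 in wild-type replicates 1 to 4 and 184, 1056, 597 and 768 in mutant replicates 1 to 4. Here mutant replicate 2 exceeded wild-type replicate 4, so the genotypes overlapped. Its log2 difference was -1.43 (adjusted p = 0.365, 0.106 and 0.165 in the same order). Both were called when mutant replicate 1 was left out and the sets of replicates were used as a block, a fit added after the data were seen: the log2 differences were -1.17 and -0.84 (limma, adjusted p = 0.0105 and 0.0224). Near-identical copies of aldolase sequences may share probes.

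Gapdhs encodes the glyceraldehyde-3-phosphate dehydrogenase of spermatids, which is bound to the fibrous sheath of the tail, and it had the largest difference of the 16 probe sets. It read 5630.1, 8196, 6835 and 5049 in wild-type replicates 1 to 4, and 641, 2609, 1714 and 2613 in mutant replicates 1 to 4. The highest mutant was well below the lowest wild type, and mutant replicate 1 was lowest of all. Mean intensities were 6427 ± 1394 and 1895 ± 936 (SD, n = 4 each). The difference of mean log2 values was -1.92, a 3.78-fold lower level on that scale. The adjusted p from limma was 0.129 unblocked, 0.0171 blocked by replicate number and 0.043 blocked by the sets. Without mutant replicate 1 the unblocked fit called Gapdhs as well (log2 difference -1.47, adjusted p = 0.0434), the single member called there, where 0.44% of all probe sets were called.

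**Figure D2:**
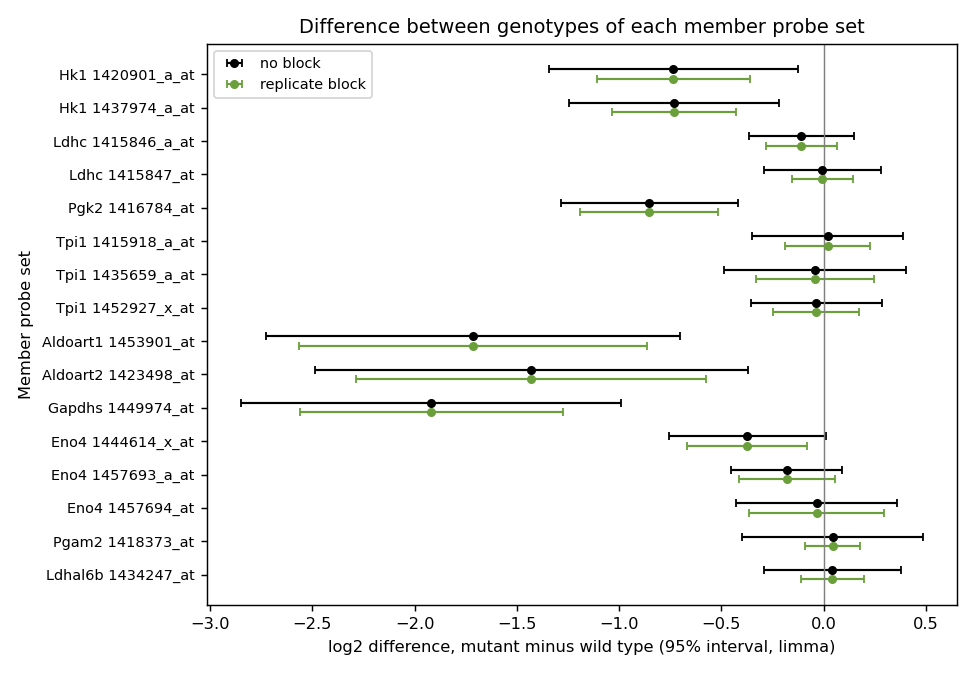
Log2 difference, mutant minus wild type, of each member probe set with its 95% interval from limma, unblocked (black) and blocked by replicate number (green). Gapdhs lies at -1.92 and Aldoart1 at -1.72, while the intervals of Ldhc, Tpi1, Pgam2 and Ldhal6b span 0 in both fits.

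Eno4 encodes an enolase-like protein of the sperm tail, and its 3 probe sets differed in size: -0.37, -0.18 and -0.03 on the log2 scale. The first read 1437, 1916, 1414 and 1266 in wild-type replicates 1 to 4 and 1272, 1265, 932 and 1149 in mutant replicates 1 to 4, with 3 of 4 mutants below the lowest wild type. The brightest read 2278, 2316, 2038 and 2371 against 2021, 2239.6, 1839.7 and 1850.2. Neither passed (limma, adjusted p = 0.691 and 0.949 unblocked, 0.226 and 0.467 with the replicate block). The probe set at -0.37 carries the suffix that Affymetrix gives to sets whose probes may also match other transcripts.

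Pgam2, the phosphoglycerate mutase of muscle, testis and sperm, read 17099.9, 17047, 13079 and 10996 in wild-type replicates 1 to 4, and 17165, 18598, 12845 and 11541 in mutant replicates 1 to 4. Replicates 1 and 2 were higher than 3 and 4 in both genotypes. The log2 difference between genotypes was 0.04, and its 95% interval was -0.40 to 0.49 unblocked and -0.09 to 0.18 blocked by replicate number. Ldhal6b, a testis gene related to lactate dehydrogenase A, read 16948, 16467, 13799.6 and 12026 in wild-type replicates 1 to 4 and 16397, 18077, 12993 and 13537 in mutant replicates 1 to 4. It showed the same pattern, with a log2 difference of 0.04 and an interval of -0.11 to 0.20 with the replicate block. After quantile normalization both values turned to -0.03.

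Some members with little difference between genotypes differed between the sets of replicates. Lower in replicates 3 and 4 were Pgam2 (log2 difference -0.53), Ldhal6b (-0.38), all 3 probe sets of Tpi1 (-0.39, -0.43 and -0.30) and 1 of Ldhc (-0.29), in all 6 of 16 member probe sets (limma, adjusted p between 0.000528 and 0.0154), and none was called higher. Of all probe sets 17.6% were lower there. Gapdhs (0.25), Aldoart1 (0.09), Aldoart2 (0.04) and Pgk2 (0.09) were not called between the sets (adjusted p between 0.643 and 0.956). The part of the epididymis genes, which rose between the sets, in these values was not tested.

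Germ cell isozymes were then set against the widespread isozyme of the same step, as the difference of their log2 values on each array. This tests whether the 2 transcripts changed unequally and not which was more abundant. The change of Gapdhs was -2.07 below that of Gapdh, the change of Aldoart1 -1.67 and that of Aldoart2 -1.39 below that of Aldoa, and the change of Pgk2 -0.90 below that of Pgk1. In the first 3 pairs all 4 mutants lay below all 4 wild types, which gave p = 0.0286, the smallest that the two-sided exact permutation test over 70 splits allows, and 0.0667 after Benjamini-Hochberg adjustment over the 7 pairs. For Pgk2 3 of 4 mutants lay below the wild types (exact permutation p = 0.0571, adjusted p = 0.1). For Ldhc against Ldha (-0.14), Ldhal6b against Ldha (-0.09) and Pgam2 against Pgam1 (-0.13) the exact permutation p was 0.2, 0.114 and 0.371. No pair passed after adjustment. The counterparts themselves had log2 differences of 0.15 (Gapdh), 0.05 (Pgk1), 0.13 (Ldha), -0.04 (Aldoa) and 0.17 (Pgam1). Gapdh was read from an Affymetrix control probe set, since its other probe sets were annotated to several genes; 1 of these, with 5 symbols, gave 0.19. Eno4 was not paired. Every Aldoa probe set carries the suffix for probes that may also match other transcripts. Whether these probes also read Aldoart1 or Aldoart2 was not tested.

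**Figure D3:**
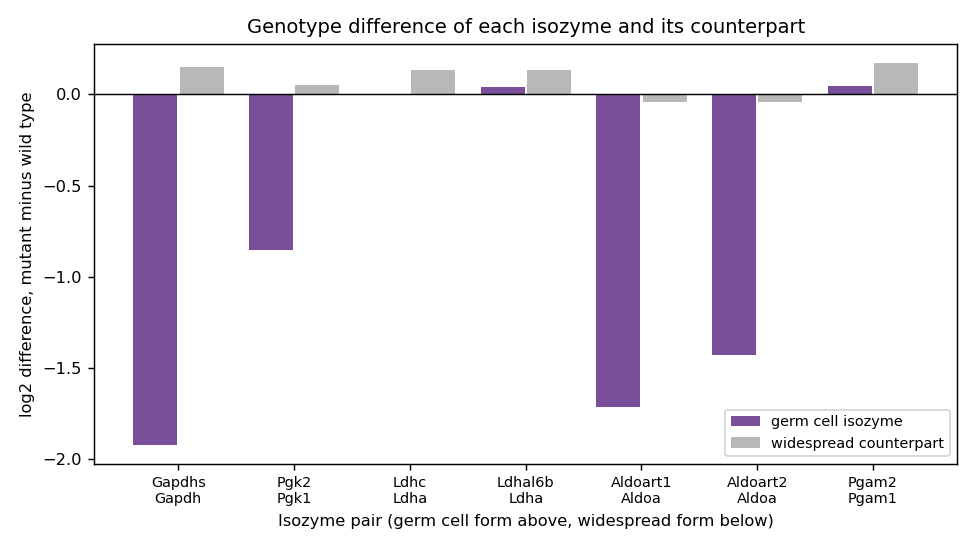
Log2 difference, mutant minus wild type, of each germ cell isozyme (purple) and its widespread counterpart (grey), on the brightest probe set of each gene. The purple bars of Gapdhs, Aldoart1, Aldoart2 and Pgk2 reach from -1.92 to -0.85, while the grey bars lie between -0.04 and 0.17.

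The size of the difference varied between replicate numbers in the same order for most of the lower members. Within number 1 the log2 difference was -3.10 for Gapdhs, -3.31 for Aldoart1, -3.13 for Aldoart2, -1.29 for Pgk2 and -1.13 for Hk1. Within number 4 the same genes gave -0.95, -0.52, -0.38, -0.32 and -0.35. All of these values are negative, and numbers 2 and 3 lay between them. The value of -3.31 for Aldoart1 rests on a mutant reading of 48.4, below that array's median of 103. Mutant replicate 1 was the lowest mutant on the probe sets of these 5 genes, 6 of the 16 in all, and on none of the others. Within replicates 1 and 2 the difference of Gapdhs was -2.37 and within replicates 3 and 4 it was -1.47; for Pgk2 these were -1.14 and -0.57, for Aldoart1 -2.30 and -1.13, for Aldoart2 -1.97 and -0.89, and for the brighter Hk1 probe set -0.85 and -0.61.

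**Figure D4:**
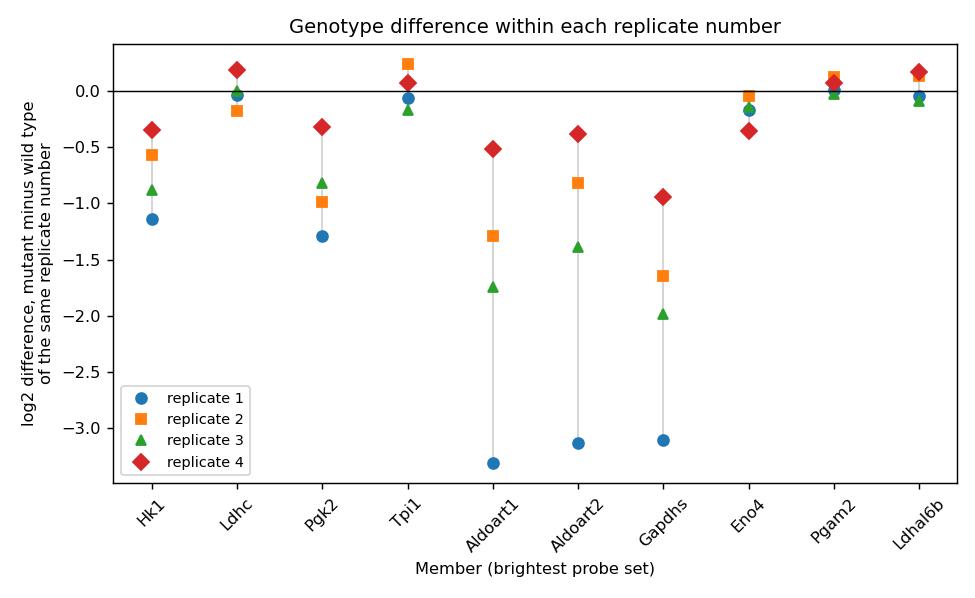
Log2 difference between the mutant and the wild type of the same replicate number for the brightest probe set of each member; symbols give the number. Gapdhs runs from -3.10 (replicate 1) to -0.95 (replicate 4), and Ldhc, Tpi1, Pgam2 and Ldhal6b scatter around 0.

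With mutant replicate 1 left out and the sets of replicates as a block, 4 member probe sets were called, Gapdhs, Pgk2, Aldoart1 and Aldoart2, where 2.59% of all probe sets were. That fit was added after the data were seen, and the mouse left out was the lowest mutant on all 4. With both mice of number 1 left out and the replicate block, 3 were called, Gapdhs, Pgk2 and Aldoart1, where 2% of all were. Gapdhs was at -1.43 and -1.53 in these fits (limma, adjusted p = 0.00216 and 0.00296).

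Genes of elongating spermatids moved with Gapdhs from mouse to mouse, and those of round spermatids in a similar order over a narrower range. As a percentage of the wild-type mean, Gapdhs was at 9.98, 40.6, 26.7 and 40.7 in mutant replicates 1 to 4, and the summed elongating spermatid list at 8.56, 35.2, 22.3 and 32.1. Among wild types, Gapdhs was at 87.6, 127.5, 106 and 78.5 and the list at 101, 126, 103 and 70.02. Counts and medians of marker lists use the brightest probe set of each gene. On these the 16 listed genes had a median log2 difference of -2.15, all 16 were negative, 12 fell with the replicate block, 8 with the sets as a block and 1 without a block. Over all 32 kept probe sets of these genes the median was -1.84, and 3 were positive. Prm1, Prm2 and Tnp1 were the brightest, and no listed gene read 0. Round spermatid genes summed to 33803 to 48282 in wild type and 23733 to 37224 in mutants. As a percentage of the wild-type mean, this sum was at 56.7, 88.9, 66.4 and 74.5 in mutant replicates 1 to 4. It was at 100.5, 115.4, 103 and 80.8 in wild-type replicates 1 to 4. Of these genes 2 of 15 fell with the replicate block, and the median of the 15 was -0.84. Over all 21 kept probe sets of these genes it was -0.43, and 3 were positive. Of all probe sets 2.18% fell with the replicate block, 1.48% with the sets as a block and 0.115% without a block. The summed pachytene list, 86285 to 92163 in wild type and 80773 to 92381 in mutants, overlapped, and none of its 16 genes was called in any of the 3 fits. The part of these cell stages in the lower values of Gapdhs, Aldoart1, Aldoart2, Pgk2 and Hk1 was not tested.

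**Figure D5:**
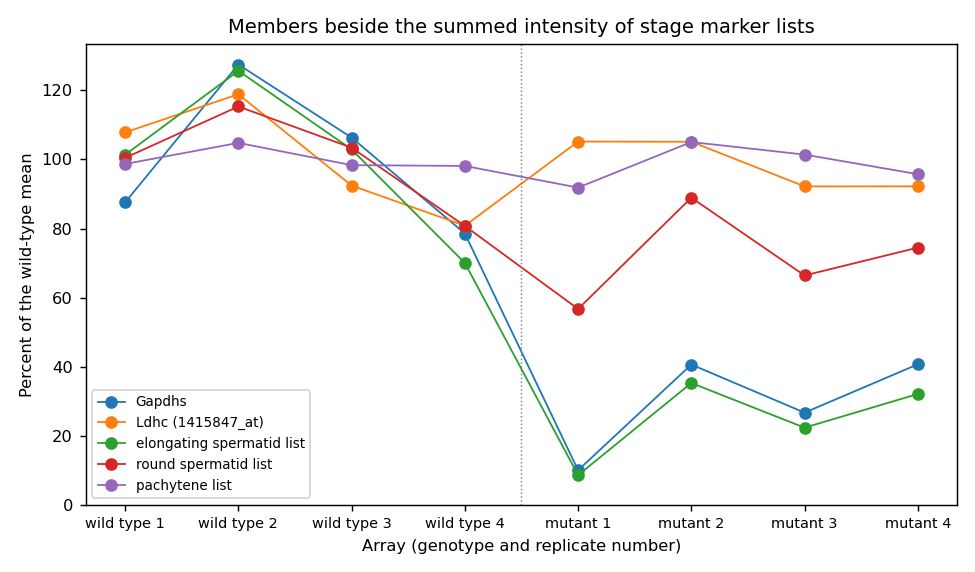
Intensity of Gapdhs and Ldhc and summed intensity of 3 stage marker lists in each array, as a percentage of the mean of the 4 wild types; the lines only join the points of one series. Gapdhs and the elongating and round spermatid lists are lowest in mutant 1, at 9.98, 8.56 and 56.7 percent, where Ldhc is at 105 percent.

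Lists of other cells had smaller median differences than the spermatid lists, and the median over all probe sets was 0.07. The median log2 difference was 0.12 over 12 kept Sertoli genes, 0.16 over 7 Leydig genes, 0.06 over 9 peritubular and muscle genes, 0.12 over 9 epididymis genes, 0.22 over 10 macrophage and leukocyte genes and 0.15 over 8 spermatogonial genes. Of the red blood cell list Alas2 alone passed the filter, at 0.47. Of these lists the macrophage list alone had called members with the replicate block, 1 lower and 1 higher. Over all kept probe sets, log2 differences ran from -1.93 to 0.63 in the macrophage list. In the peritubular and muscle list they ran from -1.25 to 0.64. Pgam2 is also a muscle enzyme. The brightest genes of the peritubular and muscle list were Acta2, Actg2 and Tagln. Its sum was 24560, 10732, 15288 and 18910 in wild-type replicates 1 to 4. In mutant replicates 1 to 4 it was 11182, 10773, 20480 and 26143. The part of muscle cells in the Pgam2 level was not tested.

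The other enzymes of the pathway were not called. A list of 27 other glycolytic genes had 21 on the array with 45 probe sets, of which 38 were kept. None passed limma's test in any of the 3 fits, and 1 had an unadjusted p under 0.05 in the unblocked one. The median was 0.09, against 0.07 over all probe sets. Bpgm, which makes bisphosphoglycerate, had -0.33 on its brightest probe set, where all mutants lay below all wild types (adjusted p = 0.231 with the replicate block), and 0.02 and -0.01 on its others. Hk2, another hexokinase, had 0.29 with all mutants above all wild types (adjusted p = 0.283 with the replicate block). Eno3, the muscle enolase, had 0.42 and Pfkl, a phosphofructokinase subunit, 0.27, both with overlapping genotypes.

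Of 20 listed regulators and transporters 17 were on the array, with 33 probe sets of which 27 were kept. Slc16a7, a carrier of lactate and pyruvate, fell with the replicate block (limma, adjusted p = 0.0407) and was the single one called. It read 4368, 6624, 7062 and 5215 in wild-type replicates 1 to 4 and 1491, 3196, 4094 and 4361 in mutant replicates 1 to 4. The genotypes did not overlap, with wild-type replicate 1 just above mutant replicate 4. Its log2 difference was -0.91, and -0.57 without mutant replicate 1, and with the sets as a block it was not called (adjusted p = 0.116). With both mice of number 1 left out, no gene of either list was called with the replicate block. Pfkfb2 and Pfkfb3, enzymes that set the level of a phosphofructokinase activator, had -0.92 on 1 probe set each and 0.16 and 0.21 on their brightest, none of these being called. Slc2a4, an insulin-regulated glucose transporter, had 0.45 and 0.35 on its probe sets.

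Profiles over the 8 arrays were also compared by the root-mean-square difference of log2 values, each profile centred on its own mean. Among members, Ldhal6b and Tpi1 were the closest pair (0.05), followed by Ldhal6b with Ldhc (0.09) and with Pgam2 (0.10). The measure is not scaled by how far a profile moves, so members with small differences lie close together. Among the lower members, Hk1 was closest to Pgk2 (0.15) and Aldoart1 to Aldoart2 (0.17) and Gapdhs (0.21). Gapdhs and Ldhc differed by 1.14. The 5 genes closest to Gapdhs among 13795 were Cypt1, Cdyl, Atp1a4, Cep295nl and Asb15, at 0.12 to 0.13, and 36 genes lay within 0.2. Those closest to Pgk2 were Dgkh, Glrx2, Lgals8, Srpk2 and Smap1, at 0.05 to 0.09, with 71 genes within 0.2. For Ldhc they were Gstm5, Vmn1r148, Hax1, Nt5c2 and Psmb7, at 0.04 to 0.06. Since the profile of Ldhc is nearly flat, with 2489 genes within 0.2 of it, these names say little.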

How the data were processed

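The series holds 8 mouse testis arrays in 2 genotypes. The authors deposited linear intensity values made with GCOS, according to the submitters' processing notes. Its version is not stated there. Each array's mean, trimmed by 2% at each end, is 500. It holds no detection calls, which leaves the background level open to question. Between 154 and 218 values on each array were below 1. Of 45101 probe sets 64 were controls and kept out of the tests. A single gene symbol was given for 34945 of the others, several for 932 and none for 9160. RefSeq (GRCm38.p6) served to update symbols.

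Values were taken as log2(value + 16), which understates differences of dim genes. Probe sets with a mean above the 40th percentile, 27022 in all, were tested with limma 3.58.1 (R 4.3.3; lmFit, eBayes with trend, two-sided) and Benjamini-Hochberg adjustment over all of them. The number of arrays limits precision, and nothing says whether spread between mice is partly technical. Isozyme pairs used the brightest probe set of each gene. Same-numbered mice deviated together from their genotype means (r from 0.519 to 0.618 in 4 pairs). However, 1 of 4 wild types was closest to the mutant of its own number. Wild types 1, 3 and 4 were closest to mutants 2, 4 and 3, within the same set of replicates. These correlations cannot tell pairing by number from the difference between the sets, and the labels state no pairing. On simulated data for this comparison over 27022 probe sets, 82.1% of changes of 2 log2 units and 31.8% of changes of 1 unit were recovered without a block, 92% and 42% with the replicate block, and 98.2% and 67% with the sets as a block. False calls among unchanged probe sets numbered 2, 6 and 16 in these fits. The simulated data held a shift between the sets of replicates and no effect of replicate number. Their noise was independent, normal and of equal spread in both genotypes. The rates therefore favour the block by sets and do not give the power of the fits on the real arrays.

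Named were all members, pathway genes called without a block or with the replicate block, up to 4 further genes per list with the smallest p, the counterparts, the nearest profiles, and bright marker genes. Members and lists were chosen with earlier results of these data known. Figures were drawn with matplotlib 3.10.9.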

Additional observations from a re-analysis of the deposited data

How the results depend on the processing

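Gapdhs, Pgk2, Aldoart1, Aldoart2, both Hk1 probe sets, the dimmer Ldhc probe set and 2 of 3 Eno4 probe sets kept their sign in every alternative run. Member calls numbered 0 without a block. They also numbered 0 in unblocked fits under quantile normalization, median centring, other pseudocounts, other filters, no trend, robust eBayes, 1 probe set per gene and within either set of replicates alone. The blocked fits were not repeated under these settings, so whether the blocked calls depend on them was not tested. They numbered 3 with the replicate block, 2 with the sets as a block, 4 with that block without mutant replicate 1, 3 with the replicate block when number 1 was dropped, and 0 to 1 as each mouse was left out without a block. Over all probe sets these counts were 31 without a block, 646, 485, 701, 540, and 0 to 119; the count was 58 with a pseudocount of 64 and 0 within replicates 1 and 2. Over both lists of other pathway genes 1 probe set, of the carrier Slc16a7, was called with the replicate block.

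Signs turned only for differences near 0. Quantile normalization gave -0.032 for Pgam2 and -0.033 for Ldhal6b, and median centring -0.022 for the brightest Tpi1 probe set. Within replicates 1 and 2 the dimmest Eno4 probe set gave 0.17 and the dimmest and middle Tpi1 probe sets 0.049 and 0.012. Within replicates 3 and 4 the brightest Ldhc gave 0.093 and the brightest Tpi1 -0.050. With the replicate block when number 1 was dropped, Ldhc gave 0.0032 and the dimmest Tpi1 0.031, and with the sets as a block without mutant replicate 1 they gave 0.013 and 0.038. As each mouse was left out, Ldhc ran from -0.10 to 0.082, Pgam2 from -0.083 to 0.16, Ldhal6b from -0.053 to 0.12, the dimmest Eno4 from -0.16 to 0.060, and Tpi1 from -0.081 to 0.11 (brightest), -0.21 to 0.052 (dimmest) and -0.11 to 0.052. Why they turned was not tested. Among the isozyme pairs, the unadjusted exact permutation p of Aldoart2 against Aldoa rose to 0.0571 under quantile normalization. It was also 0.0571 when mutant replicate 1 or any single wild type was left out. For Aldoart1 against Aldoa this p was 0.0571 without mutant replicate 1. For Gapdhs against Gapdh it stayed at 0.0286 as each mouse was left out. With exact sign flips within replicate number (replicate block) no isozyme pair can go below p = 0.125; every pair was at that value except Ldhal6b against Ldha (exact p = 0.25), so this test separates none of the others.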
